A study of Mus musculus with 12 samples.

Results

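The intra-abdominal fat of this series is the epididymal white pad (eWAT), represented by 3 of the 12 libraries. It was set against 9 libraries of 3 outer depots, 3 from each: brown fat from between the shoulder blades (iBAT), brown fat from above the collarbone (scBAT) and subcutaneous white fat of the groin (iWAT). Libraries were assigned by their labelled depot. All depots came from untreated male C57BL/6 mice aged 8 weeks and kept at ambient temperature, and no transgene or drug is named. The labels do not say whether replicates are separate animals, so p-values measure the spread between libraries, which may be technical.

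Fat pads inside the abdomen arise from lateral plate mesoderm and are covered by mesothelium, a sheet of epithelial-like cells that lines the body cavities. Outer pads lie under the skin or between muscles and lack that lining, and the interscapular brown pad arises largely from somitic mesoderm. White adipocytes store lipid and secrete hormones such as leptin, whereas brown adipocytes burn lipid through the uncoupling protein Ucp1. Of the outer depots 2 are brown, so a difference from their mean holds white-against-brown differences. For that reason eWAT was compared with the equally weighted mean of the 3 outer depots and also with each of them.

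Levels are given as CPM, the counts of a gene scaled to a common TMM-adjusted library size, and differences as log2 values with standard errors (SE). A gene was called against each outer depot when all 3 pairwise differences had one sign and the largest of the 3 pairwise p-values passed an adjusted p of 0.05. That p is the adjusted p given for a gene unless another comparison is named. For some lists members at an unadjusted p under 0.05 are also counted. The share of all tested genes at that threshold was not counted, so those counts have no background beside them. Total counts were 23793792 to 29262554 in eWAT libraries and 17159401 to 25467294 in the others.

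Several libraries stand apart. Library eWAT 3 held transcripts of small intestine epithelium, with 19 of 20 markers detected and a summed level of 1062 CPM. The sum was 2.06 and 1.86 CPM in eWAT 1 and 2 and at most 7.67 CPM in an outer library. Library eWAT 2 held salivary gland transcripts at 3401 CPM, against 485.4 and 480.9 CPM in eWAT 1 and 3, and scBAT libraries held 3340 to 15060 CPM. In iWAT 1 and 3 the B cell list summed to 1881 and 2609 CPM and the T cell list to 1255 and 1932 CPM, against 119.1 and 82.8 CPM in iWAT 2. The pan-adipocyte list summed to 15330 and 9904 CPM in iWAT 1 and 3 and to 26690 CPM in iWAT 2. The intestine list was chosen after its genes were seen in eWAT 3, and the part of these transcripts in the results was not tested beyond leaving the libraries out. Of the 316 genes with at least 1 CPM in eWAT 3 and at least 4 times the level of both other eWAT libraries, 0 were called higher against each outer depot. The same count was 0 of 34 for eWAT 2. A gene that varies this much within eWAT is unlikely to pass the test, so these counts cannot show whether smaller contributions reached the calls. Secretory genes of the epididymis, on which this pad lies, summed to 1.67, 38.1 and 1.91 CPM in eWAT 1 to 3, and only 2 of the 20 on that list had enough counts to be tested. The scBAT libraries held 43.5 to 451 CPM of that list.

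**Figure D1:**
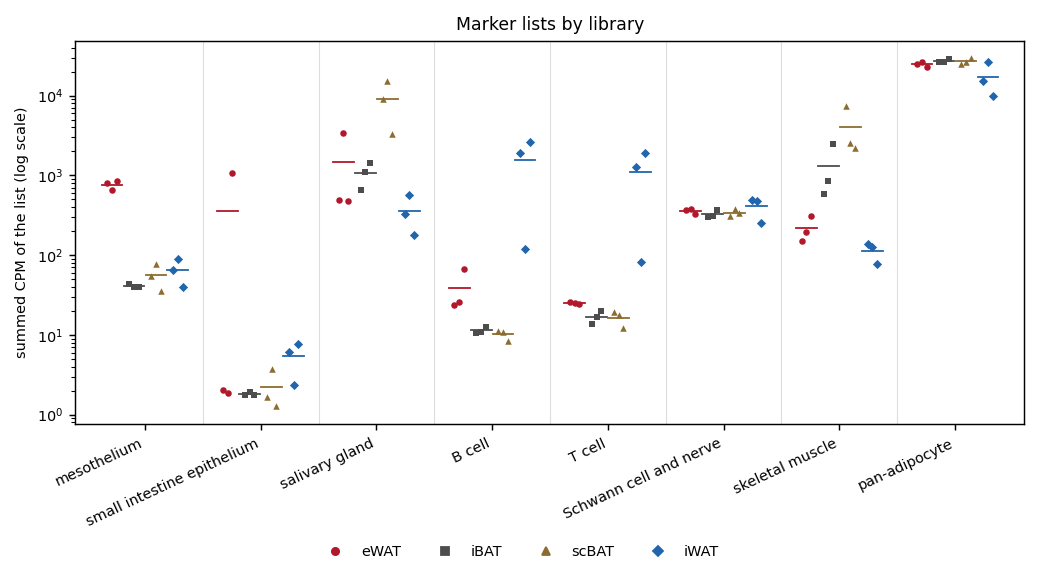
Summed CPM (log scale) of 8 marker lists, 1 point per library and a bar at the mean of the 3 libraries, with eWAT at the left of each group. Mesothelium markers sum to 655 to 849 CPM in eWAT libraries and to at most 90.1 CPM in outer libraries, and single eWAT and iWAT libraries stand apart in the intestine, salivary, B cell and T cell lists.

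Of 14898 tested genes, 7106 (47.7%) differed from the mean of the outer depots, 7998 (53.7%) from iBAT, 7731 (51.9%) from scBAT and 4277 (28.7%) from iWAT. Against the outer mean, 3589 genes were higher in eWAT (24.1%) and 3517 were lower (23.6%). Against each outer depot, 583 genes (3.91%) were called, 447 of them higher (3%) and 136 lower (0.913%). Of these, 311 were at least 2-fold higher and 71 at least 2-fold lower than each depot. Against iWAT alone, 1646 genes were higher (11%) and 2631 lower (17.7%). That balance reversed in limma-voom, with 1978 higher and 1479 lower, and with 1 library left out the total of 4277 ran from 1221 (without eWAT 1) to 10323 (without iWAT 2). Against iBAT 4097 were higher (27.5%) and 3901 lower (26.2%), and against scBAT 3851 were higher (25.8%) and 3880 lower (26%). All 3 eWAT libraries lay above all 9 others for 1853 genes (12.4%) and below them for 994 (6.67%). The median log2 difference over all tested genes was -0.04 against the outer mean. The distance between libraries, as the root mean square difference of log2 CPM, had a median of 0.534 among eWAT libraries and of 1.26 between eWAT and iWAT libraries, 1.45 to iBAT and 1.44 to scBAT. List ranges given below come from fits with 1 library left out and move with the totals of those fits. Over all tested genes, higher calls against each depot ran from 162 of 15323 (without eWAT 3) to 1653 of 15366 (without iWAT 2). Lower calls ran from 17 of 15369 (without eWAT 1) to 867 of 15366 (without iWAT 2). In the same fits, the 583 genes called against each depot became 183 (without eWAT 1) to 2520 (without iWAT 2). With library 2 alone kept in iWAT they became 496, 288 higher and 208 lower, of which 285 were among the 583; that lone library is assumed to vary like the other groups.

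A set of 94 genes (0.631% of those tested) was called against each outer depot in this fit and in all 21 alternative settings, of which 86 were higher in eWAT (0.577%) and 8 lower (0.0537%). Those settings include leaving out each library in turn, leaving out iWAT 1 and 3, and leaving out eWAT 3 with them. They include 9 mesothelium markers and 5 visceral transcription factors. Examples outside these groups, chosen after their values were seen, are Penk, the precursor of enkephalin peptides, at a mean of 79.2 CPM in eWAT and 1.85, 4.21 and 6.46 CPM in iBAT, scBAT and iWAT. Fgf1, a growth factor known for its part in fat remodelling, had a mean of 166 CPM in eWAT and 24.9, 21.3 and 18.6 CPM in the same depots.

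**Figure D2:**
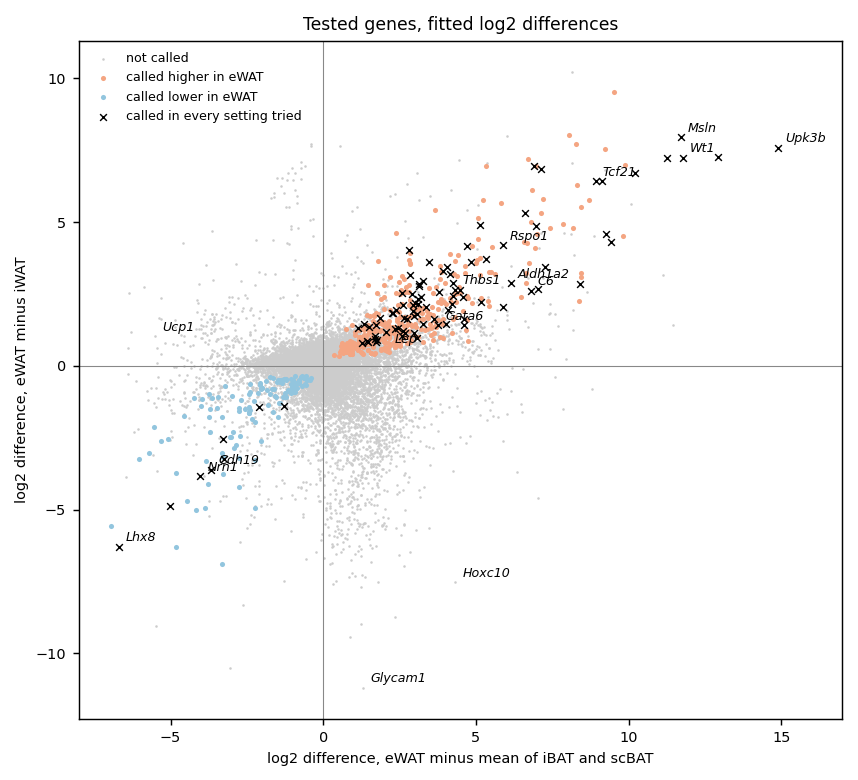
Each point is 1 of 14898 tested genes, plotted by its fitted log2 difference of eWAT minus the mean of iBAT and scBAT (x axis) and of eWAT minus iWAT (y axis). Coloured points were called against each outer depot, and crosses mark the 94 genes called in every setting; the x values of genes without counts in brown fat depend on the prior count of the fit.

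Mesothelium markers were higher in eWAT than in the outer depots. Of 14 tested markers, 10 were higher in eWAT than in each outer depot and 0 lower, against 3% and 0.913% of all tested genes. Their median log2 difference was 5.65 against the outer mean and 5.94 against iWAT, where the median of all tested genes was -0.04 and 0.00. The count of higher markers stayed at 10 to 12 with any 1 library left out, and was 9 in limma-voom with a weight per depot. Msln, Upk3b, Upk1b and Nkain4, which had few or no counts outside eWAT, passed the filter on low counts only through eWAT. The same may hold for Krt19, which was low in all outer libraries. For such markers being tested already goes with being high in eWAT, so the share of 10 of 14 is partly set by the filter. In bulk tissue, fewer cells of a type and less RNA per cell cannot be told apart, and the same holds for every cell type list below.

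Msln encodes mesothelin, a surface protein of mesothelial cells (chr17:25748613-25754378, mm10). It had 117, 76.8 and 94.3 CPM in eWAT libraries 1 to 3, against 0 counts in the iBAT libraries, 0.0621, 0.336 and 0 CPM in scBAT and 0.633, 0.308 and 0.198 CPM in iWAT. All eWAT libraries lay above all others, and no iBAT read was assigned to the gene. The log2 difference was 7.96 (SE 0.54) against iWAT, with an adjusted p of 0.000209. Against iBAT it was at least 1530-fold higher, taking 3 counts over the depot as the floor.

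Upk3b and Upk1b encode uroplakins, membrane proteins of urothelium that mesothelium also makes. Upk3b had 186, 160 and 169 CPM in eWAT libraries and 1.9, 0.352 and 0.362 CPM in iWAT libraries, with 0 counts in all brown libraries. Its log2 difference was 7.59 (SE 0.65) against iWAT (adjusted p = 0.00277), and it was at least 2730-fold higher than iBAT and at least 2860-fold higher than scBAT. Upk1b had 49.1, 38.8 and 44.1 CPM in eWAT libraries and 0.457, 0.132 and 0.23 CPM in iWAT libraries, again with 0 counts in the brown libraries. Its log2 difference against iWAT was 7.27 (SE 0.40; adjusted p = 0.000467). Both uroplakin genes were detected in every white library and in no brown one, and the iWAT level was under 2 CPM throughout.

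Nkain4, which encodes a protein that interacts with the sodium pump, averaged 25.2 ± 2.72 CPM in eWAT and 0.126 ± 0.0634, 0.243 ± 0.167 and 0.218 ± 0.133 CPM in iBAT, scBAT and iWAT (SD, n = 3 each). It was higher in eWAT with an adjusted p of 0.000111. Krt19, a keratin of simple epithelia, had 58.8, 34.5 and 72.5 CPM in eWAT libraries and at most 0.949 CPM in an outer library (adjusted p = 0.000198). Its call was lost in 1 of 21 settings, the fit with a weight per depot. Lrrn4, a leucine-rich repeat gene used as a mesothelial marker, averaged 62.4 ± 1.86 CPM in eWAT and 8.31 ± 0.797, 9.39 ± 1.11 and 3.84 ± 1.93 CPM in iBAT, scBAT and iWAT (SD, n = 3 each; adjusted p = 0.000725). Pdpn, which encodes podoplanin of mesothelium and lymphatic vessels, averaged 34.2 ± 1.24 CPM in eWAT against 1.29 ± 0.511, 2.66 ± 0.721 and 7.67 ± 0.757 CPM in the same order (adjusted p = 0.00094). The neuronal membrane glycoprotein gene Gpm6a averaged 57.8 CPM in eWAT and 0.63, 0.219 and 5.34 CPM in the outer depots (adjusted p = 0.000725).

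The tested markers that were not called were Krt7, Krt8, Krt18 and Cldn15. Krt8 had 18.8, 16.7 and 98.1 CPM in eWAT libraries 1 to 3, 4.04, 11 and 0.634 CPM in scBAT and at most 0.23 CPM in any iBAT or iWAT library (adjusted p = 0.0892). The highest eWAT value stands in the library with intestine transcripts, and the scBAT libraries hold salivary transcripts; their part in the Krt8 level was not tested. Krt18 had 10.5, 10.4 and 13.4 CPM in eWAT libraries and 8.08, 23 and 1.08 CPM in scBAT libraries, so these groups overlap.

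Transcription factors of visceral and lateral plate mesoderm were higher in eWAT as a group. Of 14 tested, 10 were higher than in each outer depot and 0 lower, against 3% and 0.913% of all tested genes. The count of higher factors was 7 to 11 with any 1 library left out, and 5 in limma-voom with a weight per depot. With any 1 library left out, 0 to 1 factors were lower than in each outer depot. Of the 10 higher factors, only Wt1, Bnc1, Tcf21, Osr1 and Gata6 were called in all 21 alternative settings. The median log2 difference was 3.31 against the outer mean and 2.01 against iWAT. Wt1, Bnc1, Tcf21, Isl1, Gata5 and Hand2, with few or no counts outside eWAT, passed the filter on low counts only through eWAT. For these factors being tested already goes with being high in eWAT, so the share of 10 of 14 is partly set by the filter.

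Wt1 encodes the Wilms tumour zinc finger protein, a regulator of mesothelium and of visceral fat precursors (chr2:105126529-105173616). It had 18.1, 19.6 and 21.7 CPM in eWAT libraries, 0 counts in all 6 brown libraries and 0.176, 0.176 and 0.0329 CPM in iWAT libraries. The eWAT values lay close together and far above every outer library. The log2 difference was 7.25 (SE 0.48) against iWAT (adjusted p = 0.000899), and eWAT was at least 315-fold higher than iBAT and at least 329-fold higher than scBAT. Bnc1, a basonuclin zinc finger gene expressed in mesothelium and stratified epithelium, had 16.2, 10.8 and 14.3 CPM in eWAT libraries, 0 counts in all brown libraries and 0.141, 0.044 and 0.0658 CPM in iWAT libraries. Its log2 difference against iWAT was 7.24 (SE 0.44; adjusted p = 0.000625).

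Tcf21, a basic helix-loop-helix factor of visceral mesenchyme that is used as a marker of white fat precursors, had 8.09, 7.77 and 7.56 CPM in eWAT libraries. It had 0 counts in iBAT, 0.0621, 0 and 0.0634 CPM in scBAT and 0.211, 0.044 and 0 CPM in iWAT. The eWAT values differed little among themselves and no outer library reached 0.3 CPM. The log2 difference against iWAT was 6.42 (SE 0.75; adjusted p = 0.00339). Isl1, a LIM homeobox factor, had 6.42, 3.57 and 6.02 CPM in eWAT libraries, 0 counts in brown libraries and 3 counts over the iWAT libraries. It was 148 times as high in eWAT as in iWAT by counts (95% counting interval 50.2 to 718, exact, counting error only; adjusted p = 0.00337). Gata5, a GATA zinc finger factor named here after its values were seen, had 4.37, 2.70 and 5.52 CPM in eWAT libraries and 0 counts in all 9 outer libraries, at least 117-fold above iWAT (adjusted p = 0.0128). Hand2, a helix-loop-helix factor of lateral mesoderm also named afterwards, had 1.06, 0.515 and 1.13 CPM in eWAT libraries and at most 0.124 CPM in an outer library (adjusted p = 0.0402).

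Osr1, Gata6, Nr2f1 and Nr2f2 were present in the outer depots and higher in eWAT. Osr1, an odd-skipped zinc finger factor of intermediate and lateral mesoderm, averaged 36.5 ± 3.65 CPM in eWAT and 1.1 ± 0.339, 3.37 ± 0.777 and 6.77 ± 3.71 CPM in iBAT, scBAT and iWAT (SD, n = 3 each; adjusted p = 0.00659). Gata6, known from peritoneal macrophages as well as visceral mesoderm, averaged 25.5 ± 1.37 CPM in eWAT and 1.41 ± 0.268, 2.51 ± 0.296 and 9.5 ± 2.26 CPM in the same depots (adjusted p = 0.00381). The nuclear receptors Nr2f1 and Nr2f2 differed least, with log2 differences of 1.57 (SE 0.26) and 0.58 (SE 0.11) against iWAT and adjusted p of 0.00911 and 0.017. The Nr2f2 call was lost with any eWAT library or iWAT 1 left out, where its adjusted p reached 0.12. Gata4, by contrast with Gata5 and Gata6, had 0.213, 0.357 and 1.57 CPM in eWAT libraries and 0.703, 0.22 and 0.988 CPM in iWAT libraries, which overlap (adjusted p = 1). Tbx5, a forelimb and heart factor on the same list, was lower than the outer mean with a log2 difference of -3.78 (adjusted p of that contrast 0.000586) and not called against each depot (adjusted p = 0.0938).

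**Figure D3:**
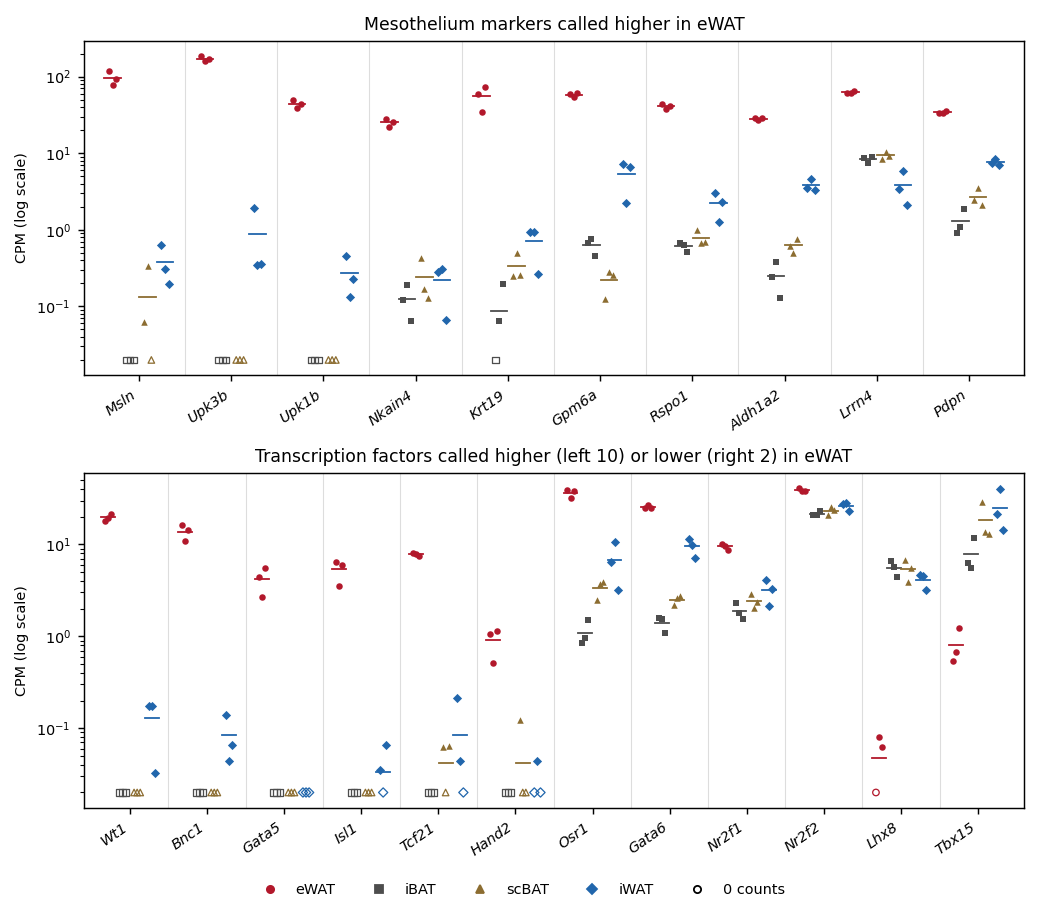
CPM (log scale) per library of the 10 called mesothelium markers (top) and of the 12 called factors of the visceral and body wall lists (bottom), with eWAT at the left of each gene, a bar at the mean of 3 libraries and open symbols at the lower edge for libraries with 0 counts. The eWAT points lie above all outer points in every column except Lhx8 and Tbx15, where they lie below.

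The start regions of 3 of these genes are shown because brown fat held no read of these genes or nearly none. The windows run from 250 bases before to 50 after the RefSeq start on GRCm38.p6, in the direction of the gene. They were searched on both strands for the GATA motif AGATAA and the E-box CAGCTG, which do not overlap here; a match is in capitals.
Upk3b, chr5:136038246-136038545, plus strand: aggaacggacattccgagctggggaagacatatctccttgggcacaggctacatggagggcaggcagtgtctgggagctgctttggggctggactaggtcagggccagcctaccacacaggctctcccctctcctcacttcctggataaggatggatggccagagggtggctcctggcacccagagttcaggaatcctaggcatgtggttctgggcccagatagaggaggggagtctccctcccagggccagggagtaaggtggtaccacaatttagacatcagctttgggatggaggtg
Bnc1, chr7:81992250-81992549, minus strand: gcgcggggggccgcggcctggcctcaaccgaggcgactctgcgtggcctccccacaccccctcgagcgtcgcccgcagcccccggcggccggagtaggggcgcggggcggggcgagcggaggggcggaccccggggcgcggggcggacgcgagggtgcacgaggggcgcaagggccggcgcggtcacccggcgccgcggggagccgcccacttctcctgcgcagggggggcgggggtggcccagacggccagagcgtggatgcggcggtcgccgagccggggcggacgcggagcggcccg
Tcf21, chr10:22820094-22820393, minus strand: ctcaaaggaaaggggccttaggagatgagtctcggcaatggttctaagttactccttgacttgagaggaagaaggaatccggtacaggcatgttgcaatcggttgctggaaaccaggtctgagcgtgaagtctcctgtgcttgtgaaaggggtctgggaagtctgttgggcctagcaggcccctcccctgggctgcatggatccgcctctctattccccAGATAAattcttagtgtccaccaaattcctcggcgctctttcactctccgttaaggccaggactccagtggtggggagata
The Tcf21 window holds a single GATA match that begins 31 bases before the start, and the Upk3b and Bnc1 windows hold neither motif. The G and C content was 58.7% for Upk3b, 83.3% for Bnc1 and 53.3% for Tcf21. Windows were listed for 302 of the 447 genes called higher. The GATA motif occurred in 10.9% of these and in 12.7% of all 27025 listed genes, and the E-box in 22.2% and 18.3%. These shares describe letters in a window and carry no test.

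Transcription factors of somitic and body wall mesoderm were mixed. Of 20 tested, 2 were lower in eWAT than in each outer depot and 0 higher, against 0.913% and 3% of all tested genes; at an unadjusted p under 0.05 the counts were 3 lower and 1 higher, and with single libraries left out 1 to 3 were lower and 0 to 2 higher. Against the outer mean 7 were lower and 4 higher, with a median log2 difference of -0.50, or -0.62 with genes without counts set at their floor. Lhx8, a LIM homeobox factor, had 0, 0.0793 and 0.0627 CPM in eWAT libraries, against 6.66, 5.67 and 4.46 CPM in iBAT, 6.77, 3.87 and 5.52 CPM in scBAT and 4.68, 4.53 and 3.19 CPM in iWAT. It was present at a like level in all outer depots, brown or white, and near 0 in eWAT. The log2 difference was -6.30 (SE 0.52) against iWAT, with an adjusted p of 0.000198.

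Tbx15, a T-box factor of dermis and limb mesenchyme, had 0.532, 0.674 and 1.22 CPM in eWAT libraries and 5.48 to 39.6 CPM in outer libraries. Its log2 difference was -4.22 (SE 0.52) against the outer mean, and its adjusted p against each depot was 0.00943. That call was lost without eWAT 1 or eWAT 2, where the adjusted p reached 0.063. Shox2, a homeobox factor of proximal limb, had 0.461, 0.159 and 0.188 CPM in eWAT libraries, 0.917, 0.701 and 1.55 CPM in iBAT, 13, 11.3 and 13.6 CPM in scBAT and 6.33, 12.5 and 2.9 CPM in iWAT. It was lower than the outer mean (adjusted p of that contrast 0.000171) and not called against each depot (adjusted p = 0.118). En1, a dermomyotome factor, had 0.284, 0.317 and 0.157 CPM in eWAT libraries, 0.573 to 0.904 CPM in iBAT, 0 to 0.127 CPM in scBAT and 1.32 to 3.35 CPM in iWAT, which places eWAT between scBAT and iBAT. Irx3 had 3.16 to 3.93 CPM in eWAT libraries, below all brown libraries (from 4.03 CPM) and above all iWAT libraries (up to 2.46 CPM). Dmrt2 had 103, 89.1 and 48.7 CPM in eWAT libraries and at most 42.5 CPM in an outer library (adjusted p = 0.0518).

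The Hox genes, which mark position along the body axis, showed another kind of difference. In edgeR, 0 tested members of the Hoxa, Hoxb, Hoxc and Hoxd clusters were called against each outer depot. At an unadjusted p under 0.05, 1 Hoxa, 2 Hoxb, 3 Hoxc and 1 Hoxd members were higher. DESeq2 called 1 member higher in each cluster, and limma-voom called 0 Hoxa, 2 Hoxb, 2 Hoxc and 1 Hoxd members. Over all 14898 tested genes, DESeq2 called 972 higher against each depot and limma-voom 753. Against the outer mean, 2 of 9 Hoxa, 5 of 8 Hoxb, 5 of 6 Hoxc and 4 of 5 Hoxd members were higher, and 2 Hoxa members were lower, where 24.1% of all tested genes were higher and 23.6% lower. The Hoxa counts are near those shares.

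Hoxc8 had 173, 168 and 157 CPM in eWAT libraries, 6.54, 6.94 and 8.14 CPM in iBAT, 0.0621, 0 and 0.0634 CPM in scBAT and 62.4, 112 and 35.9 CPM in iWAT. All eWAT libraries lay above all others, yet the adjusted p against each depot was 0.0575. Without iWAT 1 and 3 the Hoxc list held 1 call. Hoxc10, a more posterior gene of that cluster, had 0.0355, 0.238 and 0.0627 CPM in eWAT libraries and 17.5, 35.1 and 10.2 CPM in iWAT libraries, with 0 counts in brown fat. It was lower than iWAT with a log2 difference of -7.53 (SE 0.80; adjusted p of that contrast 0.00338). Hoxc9 had 7.06, 4.76 and 4.52 CPM in eWAT and 7.84, 15.6 and 4.91 CPM in iWAT, which overlap. Hoxa9 was likewise lower in eWAT than in iWAT (0.319, 0.555 and 0.564 CPM against 6.68, 14.6 and 4.12 CPM; adjusted p of that contrast 0.00131).

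Hoxa5 and Hoxa4 were higher in eWAT than in iWAT. Hoxa5 had 19.3, 17.9 and 19.1 CPM in eWAT libraries, 37.4 to 43.7 CPM in iBAT, 30.3 to 39.1 CPM in scBAT and 3.55, 5.59 and 3.03 CPM in iWAT. The eWAT level lay between brown fat and iWAT without overlap, with a log2 difference of 2.21 (SE 0.21) against iWAT (adjusted p of that contrast 0.00029). Hoxa4 had 4.08, 5.04 and 4.2 CPM in eWAT and 1.16, 2.11 and 0.922 CPM in iWAT (adjusted p of that contrast 0.00336), and was lower than the outer mean (adjusted p of that contrast 0.00609). Hoxc8, Hoxc9 and Hoxc10 overlap a Hoxc5 gene model on the same strand in the annotation used here, and Hoxa4 and Hoxa5 overlap a Hoxa3 model, so reads shared between them are uncertain.

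**Figure D4:**
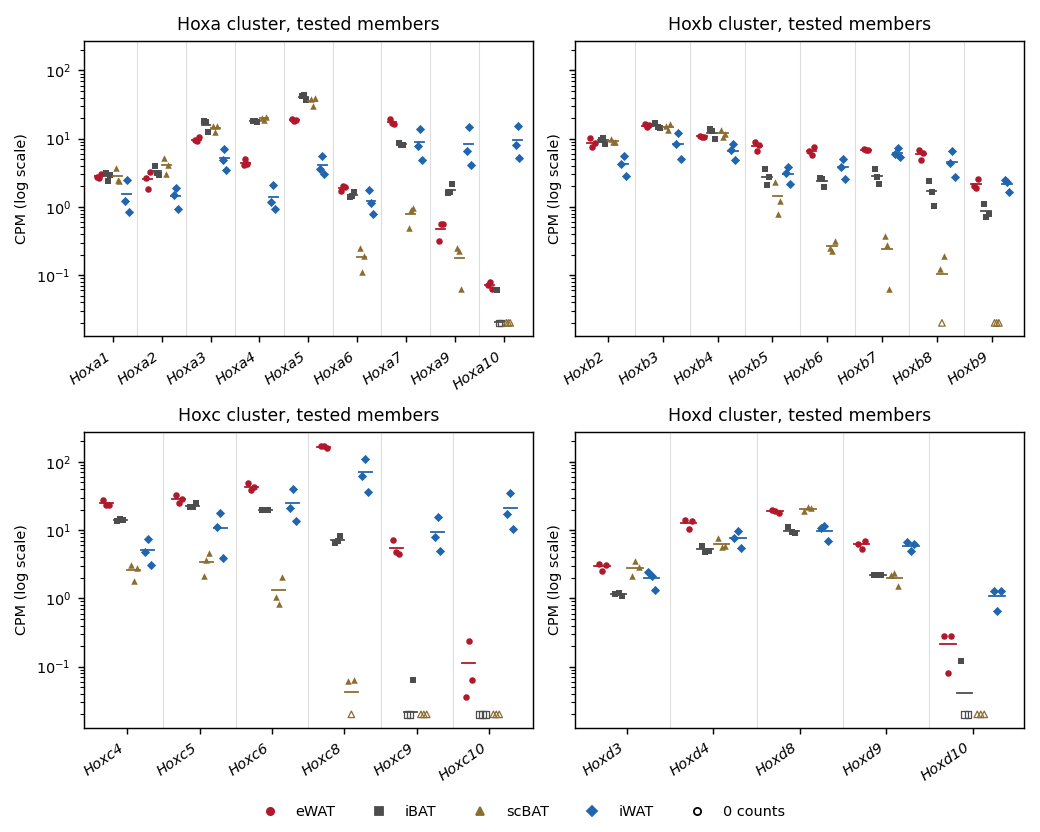
CPM (log scale) per library of the tested members of each Hox cluster, ordered from low to high paralogue number, with eWAT at the left of each gene, a bar at the mean and open symbols at the lower edge for 0 counts. The eWAT points of Hoxc8 lie above those of all other depots, while Hoxa9, Hoxa10 and Hoxc10 are highest in iWAT.

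Genes of Schwann cells, which wrap peripheral nerves, were lower in eWAT. Of 8 tested, 3 were lower than in each outer depot and 0 higher, against 0.913% and 3% of all tested genes. At an unadjusted p under 0.05, for which these shares do not hold, 7 were lower. Against the outer mean 7 were lower and 1 higher, with a median log2 difference of -2.73. The count against each depot was 1 to 5 with single libraries left out and 5 without iWAT 1 and 3. Cdh19, a cadherin of the Schwann lineage, had 0.568, 1.03 and 0.533 CPM in eWAT libraries, 9.72, 12 and 8.66 CPM in iBAT, 8.82, 7.39 and 8.44 CPM in scBAT and 9.74, 13.2 and 3.23 CPM in iWAT. No eWAT library reached an outer one, and the log2 difference was -3.66 (SE 0.45) against the outer mean (adjusted p against each depot 0.0035).

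Ngfr, the low-affinity neurotrophin receptor, averaged 0.748 ± 0.227 CPM in eWAT and 3.47 ± 0.523, 3.71 ± 0.693 and 7.39 ± 4.67 CPM in iBAT, scBAT and iWAT (SD, n = 3 each; adjusted p = 0.0473), a call lost without any brown or eWAT library or iWAT 1 (adjusted p up to 0.188). Pmp22, which many other cells also make, was the member higher in eWAT than the outer mean, at a mean of 299.9 CPM in eWAT and 139.3, 164.5 and 187.3 CPM in iBAT, scBAT and iWAT (adjusted p of that contrast 0.0131).

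Further genes were lower in eWAT than in each outer depot. Nrn1, a neurite growth factor, had 0.532, 0.833 and 0.596 CPM in eWAT libraries, 5.43 to 6.63 CPM in iBAT, 18.6 to 20.2 CPM in scBAT and 7.38 to 10.9 CPM in iWAT (adjusted p = 6.73e-05). Its call held in all 21 settings, as did those of Cdh19 and Lhx8. Sorcs2, a receptor of the sortilin family, had 2.09, 5 and 3.07 CPM in eWAT libraries, 104 to 163 CPM in brown libraries and 16.8 to 26.4 CPM in iWAT libraries (adjusted p = 0.00125). The remaining genes of the 8 lower in every setting, listed after their values were seen, were Atp8a1, Gngt2, Col13a1, Kcna6 and AI606473, with means of 29.2, 8.54, 0.294, 0.428 and 0.0842 CPM in eWAT. Elovl6, a fatty acid elongase of lipogenesis, had 59.2, 105 and 52.4 CPM in eWAT libraries, 1386 to 1977 CPM in brown libraries and 168, 377 and 180 CPM in iWAT libraries (adjusted p = 0.0228), a call lost without iBAT 2, eWAT 1 or eWAT 3 (adjusted p up to 0.125).

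Several genes of the Wnt and BMP pathways were higher in eWAT. Of 33 tested Wnt ligands, receptors and antagonists, 7 were higher than in each outer depot and 0 lower, against 3% and 0.913% of all tested genes, with 3 to 11 higher when single libraries were left out. The median log2 difference against the outer mean was 1.11. Rspo1, an R-spondin that amplifies Wnt signals and is made by mesothelium, had 43.4, 38.2 and 41.8 CPM in eWAT libraries and at most 3.02 CPM in an outer library. Its log2 difference was 5.32 (SE 0.20) against the outer mean and 4.21 (SE 0.28) against iWAT, with an adjusted p of 6.73e-05. Wnt2b, a ligand, had 33.3, 35.2 and 37.1 CPM in eWAT libraries and 0.825 to 2.74 CPM in outer libraries (adjusted p = 0.000172). Both stand far above every outer library, with eWAT values within a narrow band.

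The antagonist Sfrp1 averaged 29.3 ± 3.12 CPM in eWAT and 5.66 ± 1.32, 6.27 ± 1.21 and 8.22 ± 2.01 CPM in iBAT, scBAT and iWAT (SD, n = 3 each; adjusted p = 0.00205). The ligands Wnt5b and Wnt9a and the receptors Fzd1 and Fzd2 were called with adjusted p of 0.0113, 0.0419, 0.0238 and 0.017. Each of the calls of Wnt5b, Fzd1 and Fzd2 was lost without iWAT 1, eWAT 1 or eWAT 3, with adjusted p up to 0.152, and that of Fzd1 also without eWAT 2 or iBAT 2. Wnt9a is named to complete the count.

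Of 21 tested BMP and activin genes, 4 were higher than in each outer depot and 0 lower, against 3% and 0.913% of all tested genes, with 3 to 11 higher when single libraries were left out and a median log2 difference of 1.11 against the outer mean. Bmp4, a ligand, averaged 18.8 ± 1.68 CPM in eWAT and 2.1 ± 0.385, 2.79 ± 0.578 and 5.65 ± 0.573 CPM in iBAT, scBAT and iWAT (SD, n = 3 each; adjusted p = 0.00109). The antagonist Nog had 9.48, 7.49 and 9.94 CPM in eWAT libraries and at most 1.14 CPM in an outer library (adjusted p = 0.00585). A BMP ligand and a BMP antagonist were thus both higher in eWAT. Gdf10 was called as well (adjusted p = 0.0407), but not when any library other than iWAT 2 was left out (adjusted p up to 0.168).

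Retinoid genes included Aldh1a2, which makes retinoic acid and is expressed in mesothelium. It had 29.2, 26.9 and 28.8 CPM in eWAT libraries, at most 0.761 CPM in brown libraries and 3.52, 4.67 and 3.36 CPM in iWAT libraries, with a log2 difference of 2.88 (SE 0.23) against iWAT (adjusted p = 0.000174). Of 16 tested retinoid genes, 2 were called higher against each depot and 0 lower, against 3% and 0.913% of all tested genes, with 1 to 7 higher when single libraries were left out. The related enzyme gene Aldh1a1, a white fat marker, had 258, 228 and 263 CPM in eWAT libraries and 85.4, 145 and 34 CPM in iWAT libraries (adjusted p = 0.0657).

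Matrix genes were higher in eWAT than the outer mean for 20 of 24 tested, with 1 lower, where 24.1% and 23.6% of all tested genes were. Against each depot 5 were called higher, where 3% of all tested genes were. The median log2 difference was 1.503 against the outer mean and 0.74 against iWAT, and with single libraries left out 2 to 18 were called against each depot. Thbs1, the matricellular protein thrombospondin, had 165, 102 and 159 CPM in eWAT libraries, 4.63 to 10.7 CPM in brown libraries and 20, 23.6 and 24.4 CPM in iWAT libraries (adjusted p = 0.000276). Col14a1, a collagen that binds fibrils, had 114, 114 and 124 CPM in eWAT libraries and 9.59 to 54.3 CPM in outer libraries (adjusted p = 0.00575). Both calls held in all 21 settings. The other called members, Dcn, Col15a1 and Fn1, had adjusted p of 0.0291, 0.0344 and 0.041, and their calls were lost without any eWAT, brown or iWAT 1 library (adjusted p up to 0.17). In iWAT 2 alone the list summed to 18030 CPM, above the eWAT libraries at 15610 to 16170 CPM.

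Among 20 tested complement genes, 2 were called higher against each depot, where 3% of all tested genes were, with 1 to 11 when single libraries were left out. C6, a component of the membrane attack complex, had 43.2, 49 and 38.8 CPM in eWAT libraries, at most 1.01 CPM in brown libraries and 6.01, 9.73 and 5.73 CPM in iWAT libraries. Its log2 difference was 5.40 (SE 0.20) against the outer mean (adjusted p = 0.000467). Masp1, a protease of the lectin pathway, had 4.05, 5.23 and 3.42 CPM in eWAT libraries and at most 1.14 CPM elsewhere (adjusted p = 0.0191), a call lost without iWAT 1 or any eWAT library (adjusted p up to 0.092). The abundant components differed less. C3 had 1735, 1766 and 1635 CPM in eWAT and 1768, 1798 and 1557 CPM in iWAT, and Cfd, the adipokine adipsin, had 2609, 2544 and 2370 CPM in eWAT and 2016, 3053 and 1441 CPM in iWAT; both pairs overlap.

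Most of the called receptors that tune lipolysis were higher in eWAT. Of 24 tested, 4 were higher in eWAT than in each outer depot and 1 was lower, against 3% and 0.913% of all tested genes, with 0 to 9 higher and 0 to 3 lower when single libraries were left out. Oxtr, the oxytocin receptor, had 34.7, 27.2 and 40.9 CPM in eWAT libraries, at most 1.51 CPM in brown libraries and 6.65, 11.8 and 3.09 CPM in iWAT libraries (adjusted p = 0.014). Adrb3, the adipocyte beta-adrenoceptor that drives lipolysis, had 1076, 851 and 876 CPM in eWAT libraries, 189 to 314 CPM in brown libraries and 373, 496 and 160 CPM in iWAT libraries (adjusted p = 0.048). The groups do not overlap, but the Adrb3 call held in 5 of 21 settings and was lost without any brown or eWAT library or iWAT 1 (adjusted p up to 0.231).

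Tshr, the thyrotropin receptor, averaged 161 ± 13.4 CPM in eWAT and 6.43 ± 1.81, 7.25 ± 1.17 and 43.5 ± 28 CPM in iBAT, scBAT and iWAT (SD, n = 3 each; adjusted p = 0.0409). Sucnr1, the succinate receptor, averaged 98.6 ± 8.49 CPM in eWAT and 2.84 ± 1.16, 4.91 ± 1.17 and 32.8 ± 17.2 CPM in those depots (adjusted p = 0.0445). The Tshr and Sucnr1 calls were lost without any brown or eWAT library or iWAT 1 (adjusted p up to 0.19), and the Oxtr call was lost without iWAT 1, eWAT 1 or eWAT 3 (adjusted p up to 0.0754).

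Agt, the precursor of angiotensin, had 313, 241 and 250 CPM in eWAT libraries, 1.85 to 4.52 CPM in iBAT, 4.88 to 40.6 CPM in scBAT and 35, 46.3 and 9.02 CPM in iWAT. The groups do not overlap, while the call against each depot (adjusted p = 0.0404) held in 8 of 21 settings. It was lost without any iBAT or eWAT library, scBAT 1 or 3, or iWAT 1 or 3, where its adjusted p reached 0.551. It was the only one of 6 tested angiotensin genes, and the only one of 15 tested adipokine genes, called against each depot in this fit, where 3% of all tested genes were called higher. With single libraries left out, 0 to 3 angiotensin genes and 0 to 9 adipokine genes were called higher. Igfbp6, a binding protein for insulin-like growth factors, was the 1 of 11 tested genes of that system called (adjusted p = 0.048), and was not called without any brown or eWAT library or iWAT 1 (adjusted p up to 0.181).

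Adipocyte genes set eWAT apart from brown fat and much less from iWAT. All 10 tested white adipocyte genes were higher than the outer mean, where 24.1% of all tested genes were, and 13 of 13 thermogenic genes were lower, where 23.6% were. Against each depot, edgeR called 0 white adipocyte genes, with 4 higher at an unadjusted p under 0.05, 2 called by DESeq2 and 0 by limma-voom. For thermogenic genes the counts were 0 in edgeR, 3 lower at an unadjusted p under 0.05, 2 lower in DESeq2 and 0 in limma-voom. Over all 14898 tested genes, DESeq2 called 972 higher and 377 lower against each depot, and limma-voom 753 higher and 131 lower. With single libraries left out, edgeR called 0 to 6 white adipocyte genes higher and 0 to 2 thermogenic genes lower against each depot. Against iWAT 2 white adipocyte genes were higher, where 11% of all tested genes were, and 0 to 7 were with single libraries left out. Among thermogenic genes 2 were lower than in iWAT, where 17.7% of all tested genes were. In the fits with single libraries left out, 0 to 3 thermogenic genes were lower than in iWAT and 0 to 3 higher. Leptin (Lep) had 1300.0, 909 and 1205 CPM in eWAT libraries and 744, 1241 and 251 CPM in iWAT libraries, which overlap. Nnat, an imprinted gene high in white fat, had 1502, 1405 and 1503 CPM in eWAT and 802, 1466 and 480 CPM in iWAT. For both, the highest iWAT library was the one with few lymphocyte transcripts.

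Ucp1 had 24.2, 87.7 and 24.8 CPM in eWAT libraries, 1559 to 2399 CPM in brown libraries and 15.7, 32 and 18.7 CPM in iWAT libraries. The high eWAT value belongs to the library with salivary transcripts; the part of these in the Ucp1 level was not tested. Its log2 difference was -3.32 (SE 0.48) against the outer mean (adjusted p of that contrast 0.000231) and 1.04 (SE 0.48) against iWAT (adjusted p of that contrast 0.114). The master adipocyte factor Pparg had 372, 307 and 263 CPM in eWAT, 338 to 441 CPM in brown libraries and 91.5 to 270 CPM in iWAT libraries (adjusted p of the outer mean contrast 0.996).

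Macrophage genes were higher than the outer mean for 15 of 16 tested, where 24.1% of all tested genes were, with a median log2 difference of 1.58. Against each depot 1 was called higher, where 3% of all tested genes were, and 0 to 8 were with single libraries left out. That gene was Mertk, a receptor for engulfing dying cells, with 45.2, 51.8 and 64.2 CPM in eWAT libraries and 18 to 38.7 CPM in outer libraries (adjusted p = 0.0458). Its call was lost when any library other than iWAT 2 was left out (adjusted p up to 0.637). The list summed to 1684 to 1836 CPM in eWAT, 274.1 to 534.2 CPM in brown libraries and 1598 to 1932 CPM in iWAT libraries, so eWAT and iWAT overlap. All 10 B cell genes and all 11 T cell genes were lower in eWAT than in iWAT, against 17.7% of all tested genes. Without iWAT 1 and 3, 1 of the B cell genes and 9 of the T cell genes were. Skeletal muscle genes summed to 149 to 313.4 CPM in eWAT, 582.7 to 7349 CPM in brown libraries and 76.7 to 139.2 CPM in iWAT libraries.

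**Figure D5:**
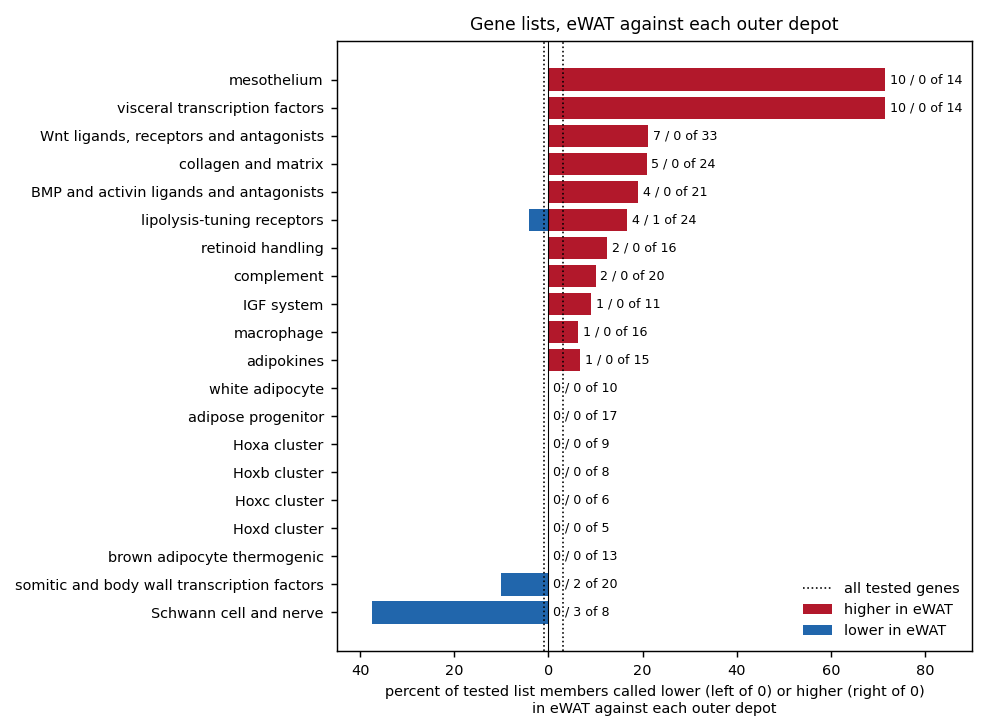
Share of tested members of 20 gene lists called higher (right of 0) or lower (left of 0) in eWAT than in each outer depot, in percent, with the counts higher / lower of tested printed beside each bar. Dotted lines give the share among all tested genes, 3% higher and 0.913% lower; mesothelium markers and visceral transcription factors stand at 10 of 14 each.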

How the data were processed

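RNA was sequenced from 4 mouse fat depots with 3 libraries each, from total RNA purified with a kit for fatty and fibrous tissue and TruSeq libraries. The deposited table holds raw read counts per gene symbol (23420 genes, 4004 without a count), which the authors did not normalize. The submitters' processing notes list HTSeq 0.6.1p1, STAR 2.4.2a, edgeR, bcl2fastq 1.8.3, Picard 1.119 and build mm10 without their roles. The annotation and the strand setting are not given in the sources used here; where genes on opposite strands overlap, their reads may be mixed.

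The 14898 genes passing filterByExpr were tested in R 4.3.3 with edgeR 4.0.16 (TMM scaling, robust quasi-likelihood F test, Benjamini-Hochberg adjustment over all tested genes, two-sided), in 1 fit of all 12 libraries with a mean per depot and 8 residual degrees of freedom. The biological coefficient of variation was 17.5% within eWAT, 12.1% in iBAT, 15.7% in scBAT and 42.6% in iWAT. The test against each outer depot takes the largest of 3 pairwise p-values. Positions are GENCODE genes on GRCm38.

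The depot contrast, the 37 gene lists and the genes were chosen with earlier results of these data known. Named genes were the 12 with the largest smallest-of-3 difference in each direction without overlap between eWAT and outer libraries and above a minimum CPM, up to 6 members per list by p, up to 4 members of lists with no call, a fixed set, and the 6 largest differences from iWAT in each direction; others are marked in the text, and some genes that met the rule are not reported here. Genes called in every setting were also counted. Folds against 0 counts use a floor of 3 counts per depot, and intervals are 95% exact binomial, covering counting error only. Alternatives were other scaling, no filter, DESeq2 1.42.0, limma 3.58.1 (voom), a replicate block and left-out libraries. On simulated data with 14704 genes, 93 of 100 genes changed 4-fold were recovered against the outer mean and 84 of 100 against each depot, and 23 and 1 of 100 changed 1.5-fold. The simulation gave all depots a common mean and a common spread per gene and changed only genes with ample counts. In the data iWAT varied more than the other depots, so these rates may not carry over.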

Additional observations from a re-analysis of the deposited data

How the results depend on the processing

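The count of genes called against each outer depot, 583 here, was 1349 with DESeq2, 884 with limma-voom and 288 with limma-voom and a weight per depot, and 183 (without eWAT 1) to 2520 (without iWAT 2) with 1 library left out. It was 185 without eWAT 3, 207 without iWAT 1, 261 without eWAT 2, 328 to 357 without any 1 brown library and 502 without iWAT 3. For eWAT minus iWAT, 4277 became 2110 with a weight per depot, 892 without iWAT 1 and 3, 818 without these and eWAT 3, and 1221 to 10323 with 1 library left out. The outer mean contrast gave 5278 to 9727 calls, eWAT minus iBAT 6712 to 10150 and eWAT minus scBAT 6269 to 9966 with 1 library left out. No named gene changed direction past the threshold in any setting, but against iWAT the lower calls outnumbered the higher ones here (2631 against 1646) and not in limma-voom (1479 against 1978). Upper quartile scaling moved the median difference from both brown depots above 0.1 on the log2 scale (0.139 for iBAT and 0.134 for scBAT). Whether same-numbered libraries of different depots share an animal is not given. Such libraries had a median correlation of deviations of -0.04, with 5 of 18 pairs over 0.1. For other numbers the median was 0.006, with 8 of 36 pairs over 0.1, and 3 of 12 libraries correlated best with their own number. The deviations also hold the intestine, salivary and lymphocyte transcripts, so these values cannot decide whether animals were shared. With the replicate block, 402 genes were called against each depot, 6821 against the outer mean and 3260 against iWAT. Causes of these changes were not tested. The low recovery of 1.5-fold changes on simulated data limits what the test against each depot can detect.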

Other observations

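Genes higher in eWAT than in each outer depot also included Krt14, a keratin of basal epithelium, at 25, 7.45 and 12.9 CPM in eWAT libraries and at most 1.57 CPM in an outer library (adjusted p = 0.0151). The call was lost without eWAT 1 or scBAT 1 (adjusted p up to 0.0915) and without iWAT 1 and 3. Lgals7, a galectin of stratified epithelium, had 11.9, 10.7 and 11 CPM in eWAT libraries and at most 0.28 CPM elsewhere (adjusted p = 0.001). Myrf, a membrane-bound transcription factor known from myelin-forming cells of the brain, had 36.8, 29.5 and 39.9 CPM in eWAT libraries and at most 1.25 CPM elsewhere (adjusted p = 0.000345), while Schwann cell genes were lower in eWAT. The calls of Lgals7 and Myrf held in all 21 settings.

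Mogat2, a monoacylglycerol acyltransferase known from intestine, had 5.75, 6.54 and 13 CPM in eWAT libraries 1 to 3 and at most 2.13 CPM in an outer library (adjusted p = 0.00979). The highest value stands in the library with intestine transcripts, and the call was lost without iWAT 1 and 3. In that library Cxcl13, a B cell chemokine, had 37.2 CPM, against 0.39 and 2.38 CPM in eWAT 1 and 2, and the B cell list summed to 66.4 CPM, against 23.7 and 25.6 CPM.

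Of 17 tested adipose progenitor genes, 8 were higher in eWAT than the outer mean and 0 lower, where 24.1% and 23.6% of all tested genes were. Against each depot edgeR called 0, with 1 higher at an unadjusted p under 0.05. Against iWAT 3 were higher and 5 lower, where 11% and 17.7% of all tested genes were. With single libraries left out 1 to 8 were higher than in iWAT and 1 to 5 lower. The list summed to 1370 to 1455 CPM in eWAT and 1418 to 1478 CPM in iWAT libraries. Of 17 circadian clock genes 3 were higher and 5 lower than the outer mean, near the shares of 24.1% and 23.6%. With single libraries left out 1 to 8 clock genes were higher and 2 to 5 lower. Of 13 immediate early and heat shock genes 5 were higher and 1 lower than the outer mean, where 24.1% and 23.6% of all tested genes were. That became 3 to 8 higher and 1 to 3 lower when single libraries were left out. Against each depot 1 of the 13 was called higher and 0 lower, where 3% and 0.913% of all tested genes were.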
